A study of Homo sapiens with 4 samples.

Results

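The genes described are 40 genes of the mitotic program, namely G2/M cyclins and kinases, CDC25 phosphatases, spindle checkpoint proteins, kinetochore and centromere proteins, spindle motors and the transcription factors that drive them. They were taken by name, for their known function, from the 47432 genes of the deposited expression table, with earlier results of these data known, and all 40 were found. T24, an established line of invasive human bladder carcinoma cells, was given isorhapontigenin (ISO), a stilbene related in structure to resveratrol, at 20 µM for 24 h (2 libraries, ISO a and b), and was compared with control cells (2 libraries, Untreated a and b). The control is untreated by its label and received dimethyl sulfoxide by the methods, which also name another culture medium than the labels do. Whether libraries a and b came from different cultures is not stated in the sources used here, so every p-value rests on a spread between libraries that may be technical only.

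Entry into mitosis is driven by cyclin-dependent kinase 1 bound to cyclin A or cyclin B, after CDC25 phosphatases remove the inhibitory phosphates that WEE1 and PKMYT1 place on the kinase. Polo-like and Aurora kinases then build the spindle, the checkpoint holds anaphase until kinetochores are attached, and the anaphase-promoting complex with CDC20 marks securin and cyclin B for destruction. The messenger RNAs of many, though not all, of these proteins are most abundant in G2 and mitosis. In arrested cells the DREAM complex holds their promoters silent through the cell cycle genes homology region (CHR), and in cycling cells MYBL2 and FOXM1 activate them through the same element, often beside CCAAT boxes that bind NF-Y. In a bulk sample, fewer cells in G2 and mitosis cannot be told apart from less RNA per cell in those phases.

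The mapped reads by which the RPKM had been scaled, recovered from the steps of the values, were 40840886 (ISO a), 33882412 (ISO b), 44790278 (Untreated a) and 42326095 (Untreated b). RPKM, the reads on a gene scaled to its exon length in kilobases and to the mapped reads of the library, is 0.0670 to 0.0885 for 3 reads over 1 kilobase at these depths. The values below are deposited RPKM divided by a factor per library from the trimmed mean of M values (TMM), and tests were made with limma on log2(value + 0.1), with Benjamini-Hochberg adjustment over all 15307 genes with a mean of at least 0.1. TMM lowered the log2 differences between ISO and Untreated by about 0.063 relative to the deposited values, which bears on differences as small as those of these genes. Of markers of the line, KRT7, KRT8, KRT18 and KRT19 were at 44.3 to 307 RPKM in ISO and 57.3 to 381 RPKM in Untreated libraries, while the epithelial cadherin gene CDH1 and the urothelial markers KRT5 and KRT20 were at or near 0 in all 4. Of the 8 urothelial markers, 2 averaged 1 RPKM or more. GATA3 was at 6.43 and 7.45 RPKM in ISO, against 4.70 and 5.04 RPKM in Untreated libraries. PPARG was at 3.99 and 3.68 RPKM in ISO, against 7.93 and 7.11 RPKM in Untreated libraries. The groups did not overlap in either gene, nor in KRT7, KRT8, KRT18 and KRT19, which were lower in ISO. Such a split is common here, with 28.1% of all tested genes higher and 29.2% lower in ISO without overlap. Of 5 leukocyte, 4 endothelial and 5 fibroblast markers, only CD14 and CDH5 averaged 1 RPKM or more. The leukocyte marker CD14 was at 3.03 to 3.57 RPKM over the libraries. The endothelial marker CDH5 was at 13.8 and 14.1 RPKM in ISO, against 18.2 and 18.0 RPKM in Untreated libraries.

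None of the 40 mitotic genes passed the test in either direction at an adjusted p under 0.05 from limma, while 9.86% of all tested genes did, 3.99% higher and 5.87% lower in ISO. The median log2 difference between ISO and Untreated cells was -0.0036 over the 40 genes and -0.0018 over all tested genes, and 19 of the 40 lay above 0 and 21 below. Over all tested genes 50.5% lay below 0. The differences ran from -0.16 for UBE2C to 0.14 for CDC25A, and 33 of 40 were smaller than 0.1 in size, with standard errors of 0.033 to 0.089. By unadjusted p under 0.05, 6 genes were lower (15%, where 14.5% of all genes were) and 0 were higher (12.6% of all genes were). Limma-voom on reads recovered from the RPKM called 3 of the 40, all lower (BUB1B, MYBL2 and UBE2C), where it called 10.5% of all genes lower and 7.64% higher. Limma on the RPKM as deposited called FOXM1 alone, higher, where it called 9.3% of all genes higher and 4.12% lower. When genes under a mean of 1 RPKM were left out, 2 were lower (BUB1B and UBE2C), where 11.4% of all genes were lower and 8.72% higher. With the letter of the library as a replicate block 0 of the 40 were called, where 3.92% of all genes were higher and 5.64% lower, and with letters crossed BUB1B alone was lower (adjusted p = 0.049 from limma), where 5.06% of all genes were higher and 6.68% lower.

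The intervals give the range of changes around each estimate and depend on the scaling. On TMM-scaled values with all 4 libraries, the 95% intervals of the log2 difference lay within 0.25 of 0 on either side for 36 of the 40 genes, that is, between 15.9% less and 18.9% more RNA in ISO cells. The other 4 were CDC25A (-0.070 to 0.35), CENPE (-0.15 to 0.27), MKI67 (-0.27 to 0.12) and UBE2C (-0.27 to -0.048), and no interval in that fit reached beyond 16.9% less or 27.6% more. With RPKM as deposited 34 of 40 lay within 0.25, the others being CDC25A (-0.016 to 0.42), CENPE (-0.11 to 0.35), NDC80 (0.034 to 0.29), SPC25 (0.016 to 0.28), PLK4 (-0.011 to 0.27) and CENPA (0.044 to 0.25). Without ISO b the intervals of the 40 genes reached from -0.38 to 0.47, the widest of the fits with a library left out. The genes were well covered, with 542 to 19205 recovered reads per gene and library (median 3989.5). Over the 8072 tested genes within the same range of levels, 14.3% were called, with a median size of 0.28 among called genes and a smallest called size of 0.14.

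**Figure D1:**
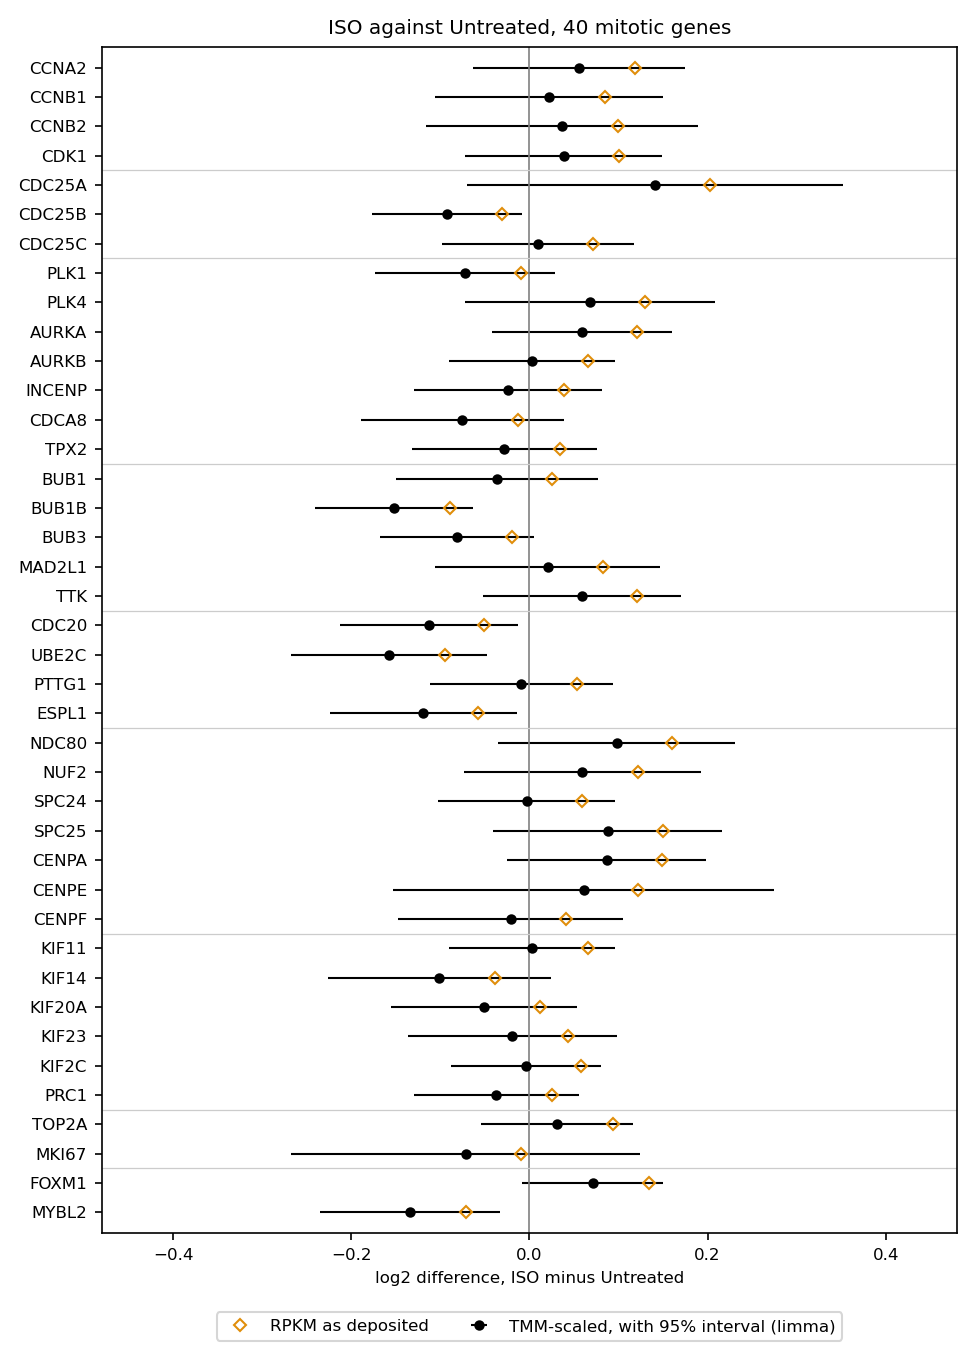
Log2 difference between ISO and Untreated cells (x axis) for each of the 40 mitotic genes (y axis, in groups by role, lines between groups). Black points are TMM-scaled values with 95% intervals from limma, and open diamonds the values from RPKM as deposited, which lie about 0.06 to the right, so that 10 genes change sign between the scalings. The points run from -0.16 (UBE2C) to 0.14 (CDC25A).

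At the median, the libraries of a group differed by more than the groups did in ISO and by less in Untreated cells. The median size of the difference between libraries b and a was 0.082 in ISO and 0.044 in Untreated cells on the log2 scale. The median size of ISO minus Untreated was 0.059. That is a difference of means of 2 libraries, which varies less than a difference of single libraries. Library b was above library a for 9 of 40 genes in ISO and for 28 of 40 in Untreated cells. ISO a stood above both Untreated libraries in 21 genes and below both in 13, and ISO b above both in 5 and below both in 22. The groups did not overlap for 5 genes that were higher (12.5%, where 28.1% of all tested genes were) and for 10 that were lower in ISO (25%, where 29.2% were). The summed level of the 40 genes was 1419 (ISO a), 1348 (ISO b), 1412 (Untreated a) and 1424 RPKM (Untreated b), so the groups overlapped there too.

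**Figure D2:**
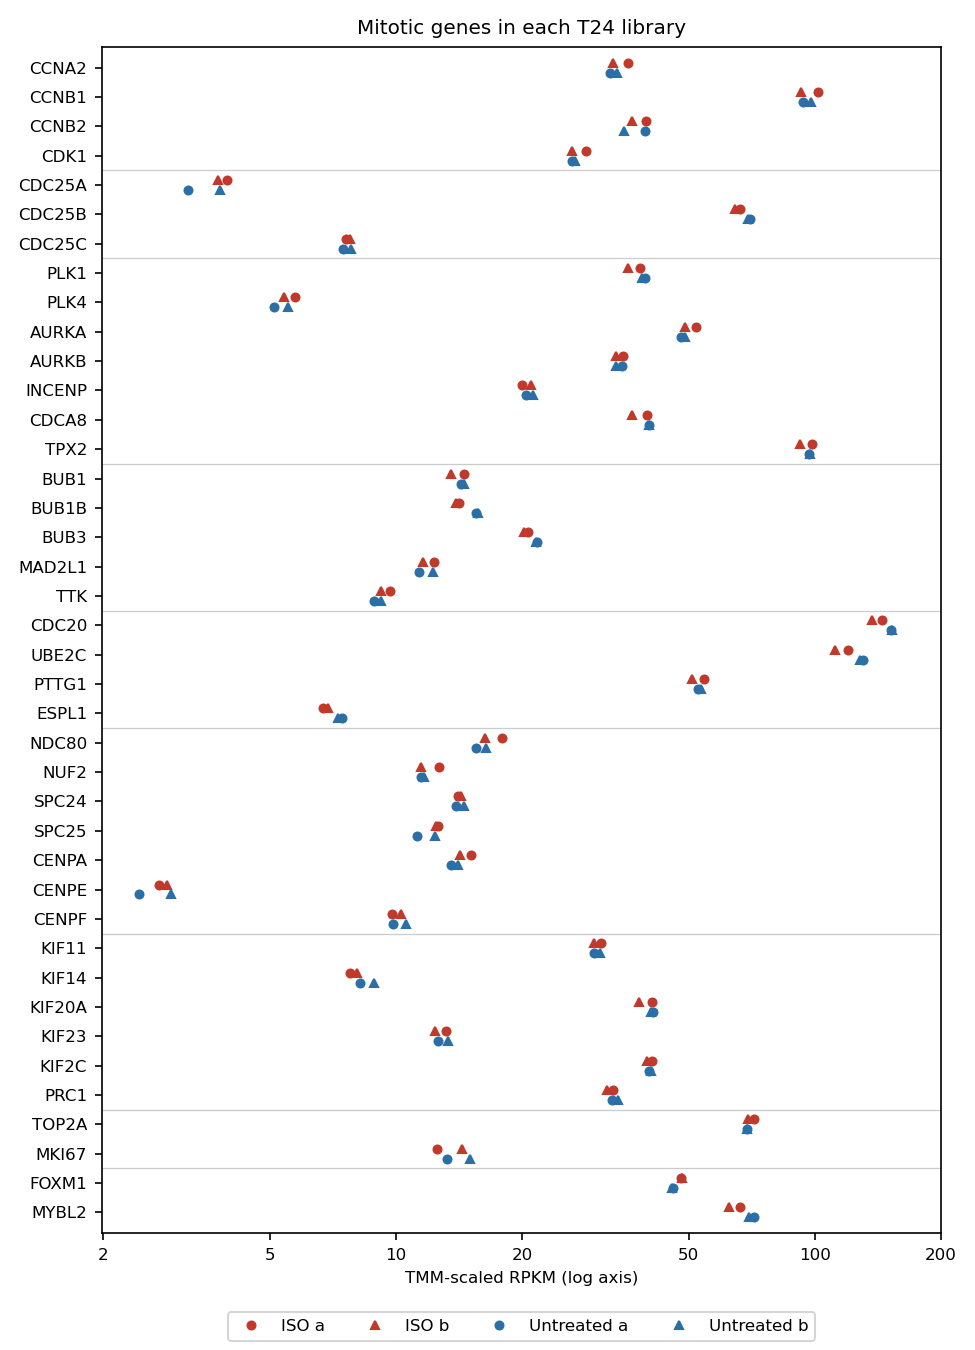
TMM-scaled RPKM (x axis, log axis) of the 40 mitotic genes (y axis, in groups by role) in each library, ISO in red above Untreated in blue, circles for libraries a and triangles for libraries b. Levels run from 2.44 RPKM (CENPE, Untreated a) to 153 RPKM (CDC20, Untreated b), and within most genes the 4 symbols lie close together.

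Cyclins A2, B1 and B2 and their kinase CDK1 all lay slightly above 0, and none passed. CCNA2, the cyclin of S and G2 phases, was at 35.9 and 32.96 RPKM in ISO a and b, against 32.5 and 33.7 RPKM in Untreated a and b (log2 difference 0.056, interval -0.063 to 0.18). CCNB1, the main mitotic cyclin and the third most abundant of the 40, was at 102 and 92.7 RPKM in ISO, against 93.5 and 97.8 RPKM in Untreated libraries. The ISO values enclose the Untreated ones, and the log2 difference was 0.022. CDK1, the kinase itself, was at 28.3 and 26.3 RPKM in ISO, against 26.3 and 26.8 RPKM in Untreated libraries (log2 difference 0.039). CCNB2, the other B-type cyclin, had a log2 difference of 0.037 and overlapped likewise. With RPKM as deposited the 4 differences were 0.12, 0.085, 0.099 and 0.10 for CCNA2, CCNB1, CCNB2 and CDK1, and none passed there either.

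The CDC25 phosphatases, which activate cyclin-dependent kinases, spread most among themselves. CDC25A, which acts at the start of S phase as well as at mitosis, had the highest difference of the 40 (log2 0.14, standard error 0.088, adjusted p = 0.36 from limma). Its levels were 3.95 and 3.75 RPKM in ISO, against 3.19 and 3.8 RPKM in Untreated libraries, so Untreated a was the lowest and ISO b lay inside the Untreated range. Without Untreated a the difference was 0.018. CDC25B, which starts activation of CDK1 in G2 and is far more abundant per length, was at 66.2 and 64.3 RPKM in ISO, against 69.9 and 69.4 RPKM in Untreated libraries. The groups did not overlap, as for 29.2% of all tested genes in this direction, and the difference of -0.093 did not pass (adjusted p = 0.15 from limma). CDC25C, which sustains activation in mitosis, was within 7.47 to 7.81 RPKM in all 4 libraries.

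Of the 7 genes for Polo and Aurora kinases and their partners, 3 lay above 0 and 4 below, with a median log2 difference of -0.024. PLK4, the kinase of centriole duplication, was the highest of them, at 5.75 and 5.41 RPKM in ISO, against 5.13 and 5.52 RPKM in Untreated libraries (log2 difference 0.068). CDCA8, which encodes borealin of the chromosomal passenger complex, was the lowest, at 39.8 and 36.6 RPKM in ISO, against 40.2 and 40.2 RPKM in Untreated libraries (log2 difference -0.075, adjusted p = 0.36 from limma). The other passenger genes were closer to 0, with log2 differences of 0.0027 for the kinase gene AURKB and -0.024 for the scaffold gene INCENP. AURKA, the kinase of spindle poles, and TPX2, its activator, had log2 differences of 0.059 and -0.028. PLK1, the kinase that drives mitotic entry and exit, had -0.072 with an interval of -0.17 to 0.028.

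Among the 5 spindle checkpoint genes, BUB1B had the smallest p of all 40. BUB1B encodes BUBR1, a part of the mitotic checkpoint complex that holds CDC20, and lies on chromosome 15 (chr15:40161023-40221123, plus strand, GENCODE on hg38). It was at 14.2 and 13.9 RPKM in ISO, against 15.5 and 15.7 RPKM in Untreated libraries (log2 difference -0.15, standard error 0.037, adjusted p = 0.052 from limma). Both ISO libraries were lower, as for 29.2% of all tested genes, and the value missed the threshold. It passed in limma-voom (adjusted p = 0.022) and when genes under a mean of 1 RPKM were left out (adjusted p = 0.031 from limma), and did not with RPKM as deposited, where the difference was -0.089. TTK, the kinase that starts checkpoint signaling, was the highest of the group, at 9.66 and 9.20 RPKM in ISO, against 8.87 and 9.22 RPKM in Untreated libraries (log2 difference 0.059). BUB1, BUB3 and MAD2L1, which carry the signal, had log2 differences of -0.037, -0.081 and 0.021.

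All 4 genes for the anaphase-promoting complex partners and sister separation lay below 0, with a median log2 difference of -0.12, and none passed. UBE2C, the ubiquitin-conjugating enzyme of that complex, had the lowest difference of the 40. It lies on chromosome 20 (chr20:45812576-45816957, plus strand, GENCODE on hg38) and was at 120.0 and 111 RPKM in ISO, against 130.0 and 128 RPKM in Untreated libraries (log2 difference -0.16, standard error 0.046, adjusted p = 0.082 from limma). It passed in limma-voom (adjusted p = 0.017) and without genes under a mean of 1 RPKM (adjusted p = 0.039 from limma). CDC20, which brings substrates to the complex and is the most abundant of the 40, and ESPL1, the protease separase, are given here after their values were seen. CDC20 was at 145 and 137 RPKM in ISO, against 152 and 153 RPKM in Untreated libraries (log2 difference -0.11, adjusted p = 0.14 from limma). ESPL1 was at 6.68 and 6.87 RPKM in ISO, against 7.45 and 7.29 RPKM in Untreated libraries (log2 difference -0.12, adjusted p = 0.14 from limma). In these 3 genes both ISO libraries were below both Untreated ones. Of all tested genes 29.2% were placed so, and 50.5% had a difference below 0. PTTG1, which encodes securin, the inhibitor of separase, overlapped, at 54.4 and 50.97 RPKM in ISO, against 52.5 and 53.5 RPKM in Untreated libraries (log2 difference -0.0091).

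Kinetochore and centromere genes lay mostly above 0, with 5 of 7 above, a median log2 difference of 0.061 and no gene that passed. NDC80, the microtubule-binding subunit of the complex of the same name, was at 17.9 and 16.3 RPKM in ISO, against 15.5 and 16.4 RPKM in Untreated libraries (log2 difference 0.098, interval -0.035 to 0.23). Its partners NUF2, SPC24 and SPC25 had differences of 0.060, -0.0030 and 0.088. Per length the 4 subunits were at like levels, from 11.2 to 17.9 RPKM over all libraries. CENPA, the histone variant that marks the centromere, was at 15.1 and 14.2 RPKM in ISO, against 13.6 and 14.0 RPKM in Untreated libraries. The groups did not overlap, as for 28.1% of all tested genes in this direction, and CENPA did not pass (log2 difference 0.087, adjusted p = 0.29 from limma). CENPF, a large outer kinetochore protein, was the lowest of the group, at 9.76 and 10.3 RPKM in ISO, against 9.81 and 10.5 RPKM in Untreated libraries (log2 difference -0.021). CENPE, a kinesin that carries chromosomes to the spindle equator, was the least abundant of the 40, and its difference of 0.061 had the widest standard error (0.089).

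The spindle motor and midzone genes had log2 differences from -0.10 to 0.0031. KIF11, the bipolar kinesin that pushes the poles apart, was at 30.9 and 29.7 RPKM in ISO, against 29.8 and 30.7 RPKM in Untreated libraries (log2 difference 0.0031, interval -0.090 to 0.096). KIF14, a kinesin of cytokinesis, was the lowest, at 7.78 and 8.06 RPKM in ISO, against 8.19 and 8.84 RPKM in Untreated libraries (log2 difference -0.10, adjusted p = 0.27 from limma). KIF20A and KIF23, which act at the central spindle, had differences of -0.051 and -0.019, and KIF2C, a microtubule depolymerase, -0.0041. PRC1, which bundles midzone microtubules, had -0.037. Of its exon bases 57.6% are shared with another annotated gene on the same strand, so its level is uncertain. PRC1, FOXM1 (15.9%) and PLK1 (11.6%) were the only 3 of the 40 with over 10% of exon bases shared with another gene, and no strand-specific counting is stated.

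TOP2A, the topoisomerase that untangles sister chromatids, and MKI67, which encodes the Ki-67 antigen used to mark cycling cells, did not pass. TOP2A was at 71.7 and 69.3 RPKM in ISO, against 69.0 and 68.9 RPKM in Untreated libraries (log2 difference 0.031, interval -0.055 to 0.12). MKI67 was at 12.5 and 14.3 RPKM in ISO, against 13.3 and 14.99 RPKM in Untreated libraries, a log2 difference of -0.072 with an interval of -0.27 to 0.12. For MKI67, library b was above library a by 0.19 in ISO and 0.18 in Untreated cells, more than the groups differed. MKI67 has the longest exon sequence of the 40 (12845 bases), and across the 40 genes the difference between libraries b and a went with exon length (Pearson r = 0.60 in ISO and 0.35 in Untreated cells, each over 40 genes within 1 pair of libraries). Over the 6209 genes with a mean of at least 5 RPKM, r was 0.16 in ISO and 0.042 in Untreated cells. These correlations are across genes, which are not independent replicates, and what sets the difference between libraries was not tested.

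**Figure D3:**
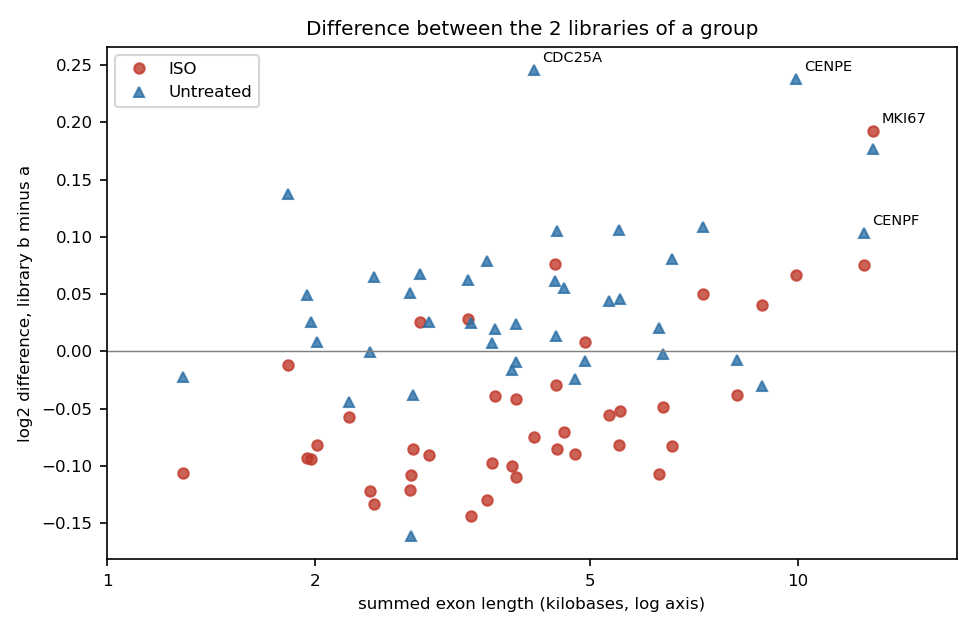
Log2 difference between library b and library a of a group (y axis) by summed exon length (x axis, kilobases, log axis) for the 40 mitotic genes, ISO as red circles and Untreated as blue triangles. MKI67, CENPF and CENPE, the 3 longest, lie above 0 in both groups, with MKI67 at 0.19 in ISO and 0.18 in Untreated cells, and most shorter genes lie below 0 in ISO.

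The transcription factors of the mitotic program lay on either side of 0. FOXM1, a forkhead factor active in G2, was at 47.9 and 48.2 RPKM in ISO, against 45.8 and 45.6 RPKM in Untreated libraries (log2 difference 0.071, standard error 0.033, adjusted p = 0.22 from limma). MYBL2, the B-MYB subunit of the activating MuvB complex, was at 66.3 and 62.5 RPKM in ISO, against 71.6 and 69.7 RPKM in Untreated libraries (log2 difference -0.13, standard error 0.042, adjusted p = 0.0996 from limma). Neither gene overlapped between groups, where 28.1% of all tested genes were higher and 29.2% lower in ISO without overlap. Their calls depended on the scaling and the test. FOXM1 passed, as higher, with RPKM as deposited (log2 difference 0.13, adjusted p = 0.038 from limma), and MYBL2, as lower, in limma-voom (adjusted p = 0.034), where FOXM1 did not (adjusted p = 0.23).

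MYBL2 and FOXM1 act on mitotic promoters through the CHR, and the promoters of the 40 genes were searched for it. Windows of RefSeq on GRCh38.p14, each running from 250 bases before to 50 bases after a transcription start, were at hand for 34 of the 40 genes, 45 windows in all because some genes have several starts. The CHR was searched as TTTGAA or TTCGAA and the CCAAT box as CCAAT, both on either strand, and each place was counted once for the palindrome TTCGAA. A CHR match was present in 26 of the 45 windows (57.8%), against 16.4% of all 35116 windows in the table. A CCAAT box was present in 33 (73.3%), against 34.6% of all windows, and both motifs in 22 (48.9%), against 6.38%. The first base of the 33 CHR matches lay at a median of 23 bases before the start, with 17 matches within the 60 bases before it and 9 after it, and that of the 63 CCAAT matches at a median of 85 bases before it. Windows of different starts of a gene can overlap, as those of PTTG1 do, so a site may be counted more than once. These are matches of letters and not measured binding sites.

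**Figure D4:**
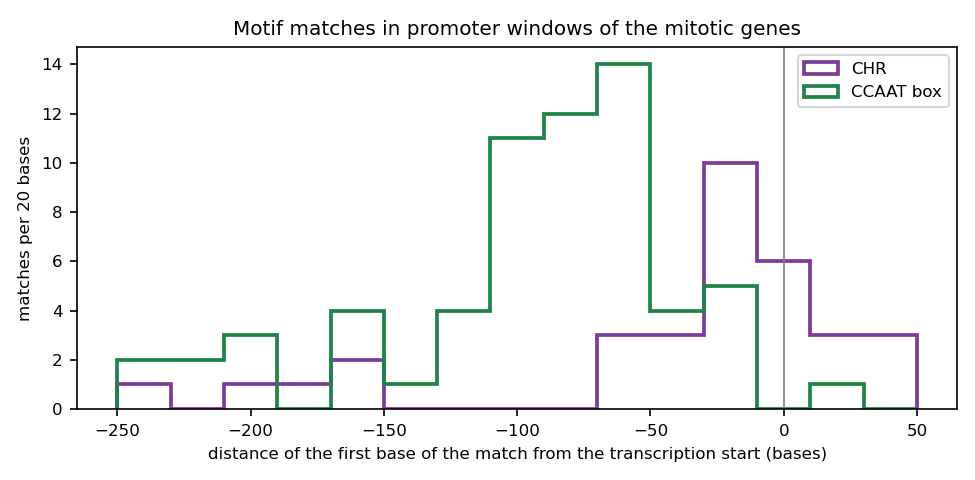
Number of CHR and CCAAT matches (y axis, matches in each bin of 20 bases) by the distance of their first base from the transcription start (x axis, bases, negative before the start) over 45 RefSeq promoter windows of 34 mitotic genes. CCAAT matches gather at a median of 85 bases before the start, and CHR matches closer to it, at a median of 23 bases.

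Of 17 windows with both motifs wholly upstream of the start, the 4 with the smallest p-values of their genes from limma are shown. BUB1B, UBE2C and MYBL2 had smaller p-values from limma but no such window. The BUB1B window held a CHR and no CCAAT box, that of MYBL2 held neither, and UBE2C had no window. The promoters shown let the arrangement of the 2 motifs be read, and whether it goes with the expression differences was not tested. Each runs 5′ to 3′ on the strand of the gene, here the plus strand, and ends at the base before the start, with CHR and CCAAT matches in capitals (ATTGG and TTCAAA are the reverse complements). They lie at chr1:43358788-43358980 (CDC20), chr12:53268236-53268298 (ESPL1), chr20:3796222-3796309 (CDC25B, 1 of its 4 windows) and chr2:26785836-26786055 (CENPA) on GRCh38.p14.
CDC20: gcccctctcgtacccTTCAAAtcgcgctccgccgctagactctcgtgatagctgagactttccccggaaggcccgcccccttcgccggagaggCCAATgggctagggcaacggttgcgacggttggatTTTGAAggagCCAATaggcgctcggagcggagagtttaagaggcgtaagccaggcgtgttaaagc
ESPL1: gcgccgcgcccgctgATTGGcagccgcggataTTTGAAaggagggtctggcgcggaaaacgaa
CDC25B: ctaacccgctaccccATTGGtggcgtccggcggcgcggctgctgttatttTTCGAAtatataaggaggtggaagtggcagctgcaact
CENPA: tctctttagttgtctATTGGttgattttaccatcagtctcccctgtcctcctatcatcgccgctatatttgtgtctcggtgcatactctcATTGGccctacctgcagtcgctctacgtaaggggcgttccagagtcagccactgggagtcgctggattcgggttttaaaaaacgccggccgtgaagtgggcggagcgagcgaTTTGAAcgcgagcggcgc
In CDC20 the CHR matches begin 178 and 65 bases before the start and the CCAAT boxes 100 and 55 bases before it. ESPL1 has its CHR 31 bases and its CCAAT box 48 bases before the start, CDC25B has them at 38 and 73 bases, and CENPA has its CHR at 18 bases with CCAAT boxes at 205 and 130 bases.

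Other genes of mitosis, with some related kinases, were taken in 11 lists written by hand with earlier results of these data known. The list of mitotic entry kinases also holds PLK2 and CHEK2, whose roles are given below. Together the lists hold 153 genes, of which 152 were tested. Of these, limma called 5 higher and 1 lower in ISO (3.29% and 0.658%, where 3.99% and 5.87% of all tested genes were), with a median log2 difference of -0.0047. PLK2, a Polo-like kinase that responds to stress and growth signals, was higher, at 46.0 and 44.8 RPKM in ISO, against 32.6 and 34.5 RPKM in Untreated libraries (log2 difference 0.43, standard error 0.041, adjusted p = 0.0037 from limma). CHEK2, a DNA damage checkpoint kinase, was higher, with a log2 difference of 0.29 (adjusted p = 0.025 from limma). PMF1, a subunit of the MIS12 kinetochore complex, was higher by 0.25 (adjusted p = 0.015 from limma), as were ZWILCH, a kinetochore protein that recruits dynein, by 0.18 and the cohesin subunit SMC1A by 0.19 (adjusted p = 0.038 and 0.039 from limma). SEPTIN9, a filament protein of the cytokinetic furrow, was lower, at 29.3 and 28.9 RPKM in ISO, against 38.5 and 36.0 RPKM in Untreated libraries (log2 difference -0.36, adjusted p = 0.0073 from limma). No gene passed among 20 of the centromere network, 22 other kinesins and microtubule regulators, 18 anaphase-promoting complex genes and 11 of centrosome duplication. None passed either among 8 condensins and 12 genes for subunits and regulators of DREAM and MuvB, which bind the CHR. Among these lists limma-voom called 3 anaphase-promoting complex genes, 1 DREAM or MuvB gene and 2 kinesin-list genes higher, and 1 gene each of the kinesin and centromere lists lower. Limma on RPKM as deposited called 3 anaphase-promoting complex genes, 2 DREAM or MuvB genes, 3 of the kinesin list and 3 of the centromere list higher and none of them lower. Over all 11 lists limma-voom called 13 higher and 4 lower (8.55% and 2.63%, where 7.64% and 10.5% of all tested genes were). Limma on RPKM as deposited called 19 higher and 1 lower (12.5% and 0.658%, where 9.3% and 4.12% of all tested genes were). The same shares of all genes apply to the counts of the single lists above. With each library left out in turn, PLK2 kept its call, SEPTIN9 lost it without ISO b, CHEK2 and PMF1 kept it only without Untreated a, and ZWILCH and SMC1A never kept it.

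S-phase genes, the nearest other part of the cell cycle, are given beside these for comparison. Of 39 replication genes, limma called 5 higher and 1 lower in ISO (12.8% and 2.56%, where 3.99% and 5.87% of all tested genes were). All tested genes include many of low level, while the replication genes had mean levels of 3.01 to 157 RPKM. Among genes at the levels of the 40 mitotic genes (2.72 to 147 RPKM), 14.3% were called in either direction. The median log2 difference was 0.10, and 36 of 39 lay above 0, where 19 of the 40 mitotic genes did. MCM6, a subunit of the replicative helicase, was at 26.9 and 25.9 RPKM in ISO, against 22.1 and 22.7 RPKM in Untreated libraries (log2 difference 0.24, adjusted p = 0.017 from limma), and CDC7, the kinase that fires origins, was higher by 0.35 (adjusted p = 0.023 from limma). CDT1, which loads the helicase, was lower by a log2 difference of -0.26 (adjusted p = 0.021 from limma). With 1 library left out, MCM6 and CDT1 kept their calls only without Untreated b, and CDC7 only without ISO b. No test of the difference between the 2 lists was made. Limma-voom called 11 of the 39 higher and 1 lower, where it called 7.64% of all genes higher and 10.5% lower. The fit with the library letter as a replicate block called 3 higher and 1 lower, where 3.92% and 5.64% of all genes were. RPKM as deposited gave 15 higher and 1 lower, where 9.3% and 4.12% of all genes were. The median of the 39 genes was 0.17 with RPKM as deposited, where that of the 40 mitotic genes was 0.059 and that of all tested genes 0.057.

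**Figure D5:**
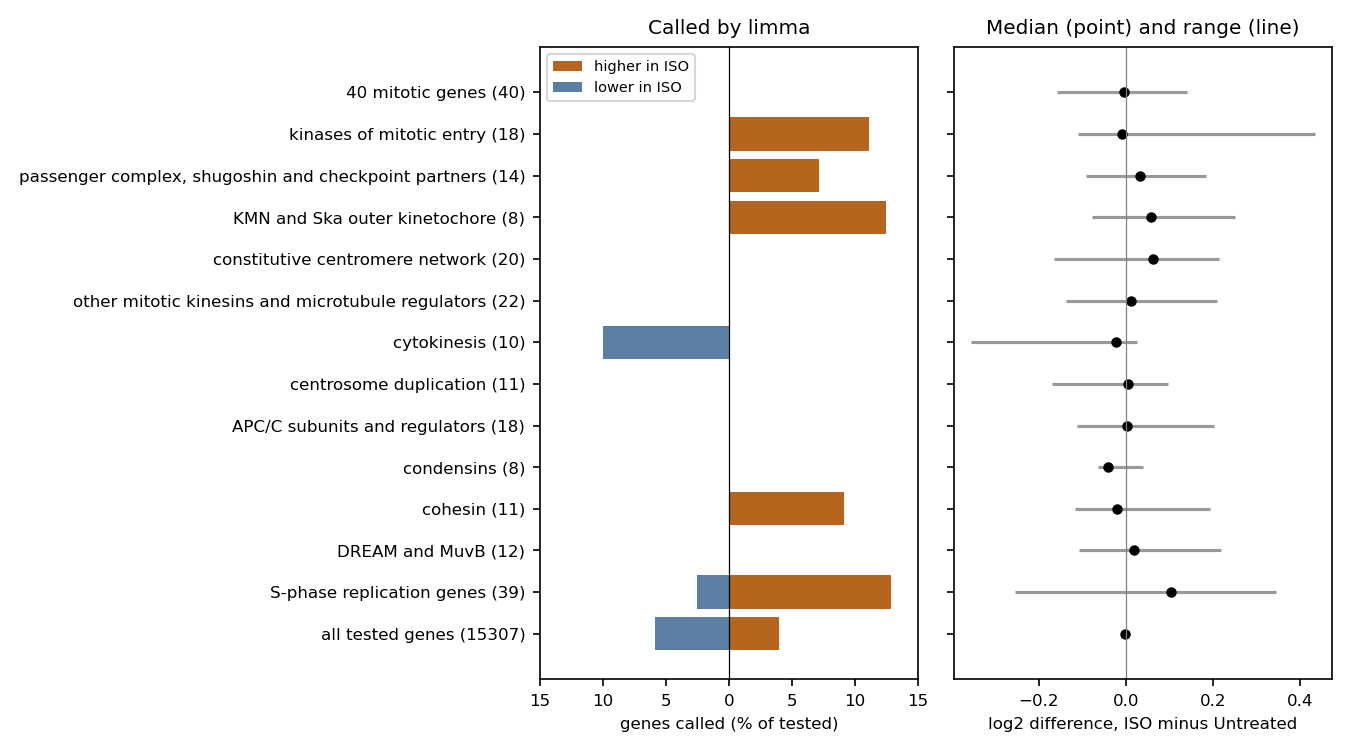
Left, percent of the tested genes of each list (number in brackets) called higher (brown, to the right of 0) or lower (blue, to the left) in ISO by limma. Right, median (point) and range (line) of the log2 difference between ISO and Untreated cells, with no range drawn for all tested genes. The 40 mitotic genes have no call and a median of -0.0036, and the S-phase replication genes have 12.8% called higher and a median of 0.10. All tested genes have 3.99% called higher and 5.87% lower.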

How the data were processed

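Per the methods, the authors trimmed paired-end reads from TruSeq libraries, aligned them to hg38 in Biomedical Genomics Workbench 22.0.2 and summed reads on the exons of each gene. The annotation is not given in the sources used here. They deposited RPKM per library, without TMM and without log. The authors' group means were not used. Multiplied by GENCODE 44 exon lengths, the RPKM gave whole reads, within 0.05, for 98.8% of values above 0 in each library. These served only limma-voom and the depths. RPKM were divided by TMM factors (own code, unweighted, trimming 30% of log ratios and 5% of levels from each end, 0.974 to 1.03), because the methods of the study state TMM, and tested on log2(RPKM + 0.1) with limma 3.58.1 (trended prior variance, 2 residual degrees of freedom) in R 4.3.3. Fold changes on this scale understate those of low genes. An exact permutation test of 2 against 2 libraries cannot go below p = 0.333. The members and lists were chosen with earlier results of these data known. The text names all 40 members, with library values for the highest and lowest of each role group and for any called, up to 2 called genes of each other list per direction, and 4 promoters. CDC20, ESPL1, CDK1 and CENPA were given more room after their values were seen. Alternatives were other scalings, pseudocounts, filters, a replicate block, limma-voom and each library left out. Libraries of a group differed by more than counting noise (mean chi-square per gene 3.83 in ISO and 3.15 in Untreated). Tables and plots were made in Python 3.11.15 (pandas 2.3.3, numpy 2.4.6; matplotlib 3.10.9 for plots).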

Additional observations from a re-analysis of the deposited data

How the results depend on the processing

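All 40 mitotic genes kept their sign with pseudocounts of 1 and 0.01, without a filter, with a mean of at least 1 RPKM, with the replicate block and in limma-voom. With RPKM as deposited 10 differences below 0 turned above it, none of them called (INCENP 0.039, TPX2 0.034, BUB1 0.026, PTTG1 0.053, SPC24 0.059, CENPF 0.041, KIF20A 0.012, KIF23 0.043, KIF2C 0.058, PRC1 0.026), and with median-of-ratios scaling SPC24 did (8.6e-04). Without 1 library in turn, with the spread of a group of 1 taken from the other group, no mitotic gene was called, and 19 changed sign at least once, over these ranges: CCNA2 -0.0082 to 0.12, CCNB1 -0.048 to 0.088, CCNB2 -0.047 to 0.12, CDK1 -0.020 to 0.092, CDC25C -0.022 to 0.037, AURKB -0.030 to 0.030, INCENP -0.063 to 0.011, TPX2 -0.081 to 0.019, BUB1 -0.094 to 0.016, MAD2L1 -0.032 to 0.070, PTTG1 -0.060 to 0.037, NUF2 -0.016 to 0.13, SPC24 -0.037 to 0.028, CENPE -0.058 to 0.18, CENPF -0.073 to 0.027, KIF11 -0.028 to 0.030, KIF23 -0.064 to 0.021, KIF2C -0.027 to 0.014, MKI67 -0.17 to 0.021. The count of mitotic genes called higher was 1 with RPKM as deposited, and that called lower was 2 with a mean of at least 1 RPKM and 3 in limma-voom. Over all genes, 611 were called higher and 899 lower. RPKM as deposited gave 1424 higher and 630 lower, a mean of at least 1 RPKM 936 and 1222, limma-voom 1150 and 1578, and no filter 57 and 163. Leaving out 1 library gave 116 to 450 higher and 291 to 524 lower. The letters a and b are not stated to pair libraries. With the letter as a replicate block 600 genes were called higher and 864 lower, with 0 mitotic genes. The deviations of same-lettered libraries had r = -0.13 over 6209 genes, but 0.41 over the 40 mitotic genes. Crossed letters, a pairing added after the value over 6209 genes was seen, gave 775 higher and 1023 lower, with 1 mitotic gene lower. The calls of ZWILCH, SMC1A, MCM3 and MCM4 ended with the block. Without a filter the calls named among the other lists ended, except that of PLK2.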
